A study of Mus musculus with 12 samples.

Results

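The levels of 10 genes of the Notch pathway were followed through the 4 stromal populations of the mouse thymus that the study sorted. They are 4 ligands (Dll1, Dll4, Jag1 and Jag2), the 4 receptors (Notch1, Notch2, Notch3 and Notch4) and 2 targets (Hey1 and Hes1). They were picked by gene symbol from a table of 23306 genes, and all 10 were among the 14792 genes with enough counts to be tested. All cells came from C57 BL6 mice with the KitL-tomato reporter, which marks cells by the gene of Kit ligand, and all were sorted as negative for lineage markers and for the dead-cell dye Dapi. Vascular endothelial cells (VEC) were EpCAM- and CD31+, and were taken either as tomato+ or as tomato-. Cortical epithelial cells (cTEC) were EpCAM+, CD31-, UEA1-, Ly51+ and tomato+. Medullary epithelial cells (mTEC) were EpCAM+, CD31-, UEA1+, Ly51- and tomato-. Each group had 3 libraries, of 8388869 to 11807130 counts. No tomato- cTEC or tomato+ mTEC are among the 4 groups, so between the epithelial groups the reporter and the sort gate change together and cannot be told apart. The labels do not say whether the 3 libraries of a group came from separate mice, so p-values measure the spread between these libraries, which may be technical. No age, sex or number of mice is used here.

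Notch receptors are proteins of the cell surface that are cut when a Delta-like or Jagged ligand on a neighbouring cell binds them. The freed inner part enters the nucleus, joins the DNA-binding protein Rbpj and turns on targets such as the repressors of the Hes and Hey families. In the thymus, Dll4 on cortical epithelium drives incoming progenitors into the T lineage, and in blood vessels Dll4, Notch1, Notch4 and Hey genes are known for arterial identity.

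The promoters of 3 members are shown because their genes lay on opposite sides of the comparison of endothelium with epithelium: Dll4 and Notch4 were the members higher in endothelium by the largest fitted log2 difference, and Notch2 was higher in epithelium. Each is the 250 bases upstream of the annotated start, 5′ to 3′ on the gene's plus strand, from RefSeq on GRCm38.p6. The expression counts were made on mm9 and were joined by symbol only. The intervals are chr2:119325534-119325783 for Dll4, chr17:34564045-34564294 for Notch4 and chr3:98013288-98013537 for Notch2. Capitals mark matches, on either strand, to the letters AGGAAG (or CTTCCT), the core bound by ETS factors, and ACAAT (or ATTGT), the core bound by SOX factors.
Dll4: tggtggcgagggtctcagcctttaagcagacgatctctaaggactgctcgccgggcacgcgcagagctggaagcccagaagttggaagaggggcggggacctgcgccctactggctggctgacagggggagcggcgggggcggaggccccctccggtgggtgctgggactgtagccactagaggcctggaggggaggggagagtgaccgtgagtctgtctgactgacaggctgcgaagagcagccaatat
Notch4: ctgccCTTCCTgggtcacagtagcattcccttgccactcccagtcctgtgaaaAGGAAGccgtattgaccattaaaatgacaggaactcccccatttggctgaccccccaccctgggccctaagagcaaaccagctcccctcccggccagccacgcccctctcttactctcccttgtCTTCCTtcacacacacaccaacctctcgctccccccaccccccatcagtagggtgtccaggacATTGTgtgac
Notch2: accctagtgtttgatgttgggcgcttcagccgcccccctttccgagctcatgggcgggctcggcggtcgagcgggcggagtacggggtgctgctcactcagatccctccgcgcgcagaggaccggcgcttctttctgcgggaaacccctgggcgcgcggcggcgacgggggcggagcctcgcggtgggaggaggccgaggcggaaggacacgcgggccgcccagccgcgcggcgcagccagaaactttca
Promoter sequence was matched for 8 of the 10 members, in 9 windows, since Dll1 has 2 annotated starts. The letters TGGGAA (or TTCCCA), the core bound by Rbpj, were searched too and none of the 9 windows holds them, while 21.6% of 32851 promoter windows of this length do. No searched string contains another. The Notch4 window holds 3 ETS matches, which begin 245, 197 and 73 bases before the start, and a SOX match that begins 10 bases before it. At least 1 ETS match occurs in 29.5% of all windows and 3 or more in 1.22%, a limit chosen after the matches were seen. A SOX match occurs in 27.7% of all windows. Of the other windows, that of Jag1 holds 1 SOX match. The 2 windows of Dll1 differ, with 1 ETS match and no SOX match in chr17:15375824-15376073 and 3 SOX matches and no ETS match in chr17:15376933-15377182. A match is a description of the letters only.

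The sorted populations carried the markers of their labels. Levels are given as normalised CPM, the counts of a gene scaled to a common library size. In tomato+ VEC, Kitl, the reporter gene, reached 1043 ± 436 CPM, against 438 ± 40.7 CPM in the tomato- cells of the same gate (SD, n = 3). The epithelial levels were 222 ± 35.3 CPM for tomato+ cTEC and 22.0 ± 15.9 CPM for tomato- mTEC, so tomato- VEC held more Kitl RNA than tomato+ cTEC. The summed level of 10 endothelial markers was 9156 to 12323 CPM in the endothelial libraries, and that of 8 epithelial markers was 3631 to 4957 CPM in the epithelial ones. Epithelial markers summed to at most 14.8 CPM in VEC, with Epcam at 0 in tomato+ VEC. Endothelial markers summed to 20.9, 403 and 4.07 CPM in the 3 cTEC libraries and to 31.7 to 67.0 CPM in mTEC, with none of the 10 at 0 in either group. Thymocyte markers summed to at most 33.1 CPM in VEC, where Cd3e and Cd8a were at 0, to 72.9 to 119 CPM in cTEC and to 33.3 to 54.4 CPM in mTEC. Cortical epithelial markers, 7 genes, summed to 8782 to 11152 CPM in cTEC and 1275 to 1544 CPM in mTEC. Medullary ones, also 7, summed to 621 to 1058 CPM in cTEC and 4856 to 6210 CPM in mTEC, so each list was present in both groups. Not all genes of these lists differed: 4 cortical ones were called higher and 5 medullary ones lower in cTEC, against 7.83% of all tested genes called. These are bulk samples, in which fewer cells of a type and less RNA per cell cannot be told apart.

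Differences below are log2 values with their standard error (SE) from edgeR's quasi-likelihood test over all 12 libraries. A gene counts as called where its p-value, adjusted over all tested genes by Benjamini-Hochberg, was under 0.05. Between tomato+ and tomato- VEC, 2 of the 10 members were called, Hey1 higher and Notch2 lower in tomato+ VEC, against 1.65% of all tested genes. Between cTEC and mTEC 1 member was called, Dll4, higher in cTEC, against 7.83% of all tested genes. Between the endothelial and the epithelial groups 7 members were called, against 36.3% of all tested genes. Dll4, Notch1, Notch4 and Hes1 were higher in endothelium, and Notch2, Notch3 and Hey1 were lower. The median log2 difference of the 10 members was 0.96 between the VEC groups, 0.98 between cTEC and mTEC and 0.28 between endothelium and epithelium. Over all tested genes the medians were 0, 0.02 and -0.18. The endothelial against epithelial difference uses the same libraries as the other 2 comparisons. Scaling by relative log expression moved its median over all genes by -0.13 and changed no direction or call of a member.

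**Figure D1:**
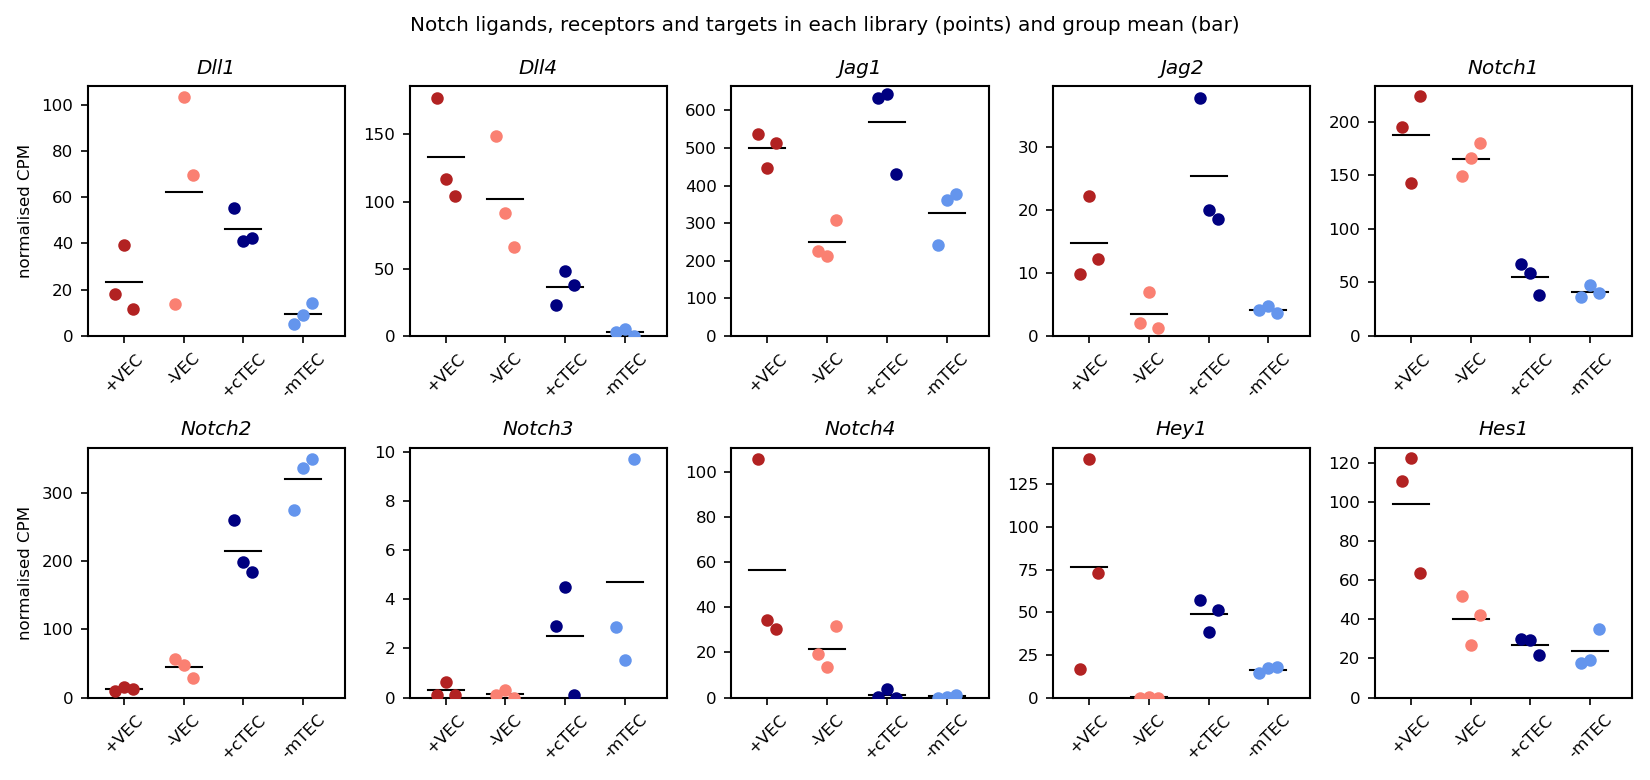
Normalised CPM (vertical axis, linear, own scale per gene) of the 10 members in each of the 12 libraries. Points are libraries, bars are group means, and the horizontal axis gives the groups, with + and - for the tomato reporter. Dll4, Notch1 and Notch4 stand high in both VEC groups, Notch2 stands high in both epithelial groups, and Hey1 is near 0 in tomato- VEC alone.

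Dll4 followed a steep order across the 4 groups. Its level was 177, 117 and 104 CPM in the tomato+ VEC libraries and 149, 91.7 and 66.1 CPM in the tomato- VEC libraries. It was 23.1, 48.4 and 37.7 CPM in cTEC and 3.37, 5.46 and 0.240 CPM in mTEC. The 2 VEC groups overlapped, whereas every VEC library was above every cTEC library and every cTEC library above every mTEC library. The log2 difference between endothelium and epithelium was 3.48 (SE 0.54, adjusted p = 0.000337). That between cTEC and mTEC was 3.60 (SE 0.77, adjusted p = 0.0167). The latter was lost without mTEC replicate 1 (adjusted p = 0.0640). Between the VEC groups the difference was 0.38 (SE 0.68, adjusted p = 0.859). Between cTEC and mTEC the median log2 difference of the 10 endothelial markers was 2.85, and 1 was called, Kdr, higher in cTEC. The cTEC library with the highest endothelial sum, 403 CPM in replicate 2, had the highest Dll4 level, 48.4 CPM. That with the lowest sum, 4.07 CPM in replicate 3, had 37.7 CPM of Dll4, and replicate 1, with 20.9 CPM, had 23.1 CPM. The summed level of the fibroblast markers was 1604 to 2201 CPM in cTEC and 137 to 407 CPM in mTEC, with none of the 7 at 0. Of these 7, 1 was called, Dcn, higher in cTEC. Of 10 tested thymocyte markers, Cd3e and Cd8a were called higher in cTEC. The comparison of cTEC with mTEC called 7.83% of all tested genes, which these counts of called markers are to be read against. The part of these lists in the Dll4 difference was not tested.

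Dll1, the other Delta-like ligand with a role in Notch activation, did not follow Dll4. It stood at 18.3, 39.5 and 11.7 CPM in tomato+ VEC and at 13.9, 103 and 69.7 CPM in tomato- VEC. In cTEC it stood at 55.4, 41.1 and 42.5 CPM and in mTEC at 5.30, 8.95 and 14.3 CPM. The cTEC libraries were above all tomato+ VEC and all mTEC libraries, and tomato- VEC held both the highest library, replicate 2, and a library within the mTEC range, replicate 1. The log2 difference between cTEC and mTEC was 2.28 (SE 0.72, adjusted p = 0.0765). That between tomato+ and tomato- VEC was -1.43 (SE 0.70, adjusted p = 0.345). Neither passed the threshold. The former passed with limma-trend on log2(RPKM + 1) (adjusted p = 0.0418) and log2(RPKM + 0.1) (0.0477), with the cTEC and mTEC libraries fitted alone (0.0116) and with DESeq2 (0.0166).

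Jag1, a Jagged ligand, was the most abundant ligand per transcript length in every library except tomato- VEC replicate 1, where Dll4 was slightly higher. It stood at 536, 448 and 514 CPM in tomato+ VEC and at 226, 212 and 309 CPM in tomato- VEC. It stood at 632, 643 and 432 CPM in cTEC and at 241, 363 and 376 CPM in mTEC. Every tomato+ library, endothelial or epithelial, was above every tomato- library. The log2 difference was 1.00 between the VEC groups (SE 0.25, adjusted p = 0.0656) and 0.80 between cTEC and mTEC (SE 0.25, adjusted p = 0.0693). Neither passed the threshold. The VEC difference passed with voom (adjusted p = 0.0340) and DESeq2 (0.00686), and the epithelial difference with voom (0.0227) and limma-trend with pseudocounts of 1 (0.0349) and 0.1 (0.0403).

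Jag2, the other Jagged ligand, had the same order of groups at lower counts. It stood at 9.87, 22.2 and 12.2 CPM in tomato+ VEC and at 2.12, 7.01 and 1.23 CPM in tomato- VEC. It stood at 37.8, 19.9 and 18.6 CPM in cTEC and at 4.15, 4.77 and 3.69 CPM in mTEC. Again no tomato+ library fell to the level of a tomato- library. The log2 differences were 2.09 in VEC (SE 0.79, adjusted p = 0.214) and 2.60 in the epithelial groups (SE 0.80, adjusted p = 0.0722), and neither passed the threshold. DESeq2 gave adjusted p-values of 0.0209 and 0.00193 for them. The epithelial difference also passed with voom (0.0337), limma-trend with pseudocounts of 1 (0.00867) and 0.1 (0.0285) and the epithelial libraries fitted alone (0.0105).

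Counted per length, as the deposited length-scaled values (RPKM), the ligands of the 4 groups had different makeups. Jag1 was 65.2% ± 5.75 of the summed RPKM of the 4 ligands in tomato+ VEC, 48.2% ± 9.57 in tomato- VEC, 77.0% ± 2.82 in cTEC and 92.7% ± 0.284 in mTEC (SD, n = 3). The share of Dll4 was 27.2% ± 4.96 in tomato+ VEC, 32.0% ± 14.8 in tomato- VEC, 8.09% ± 3.09 in cTEC and 1.46% ± 1.18 in mTEC. Dll1 held 18.9% ± 13.4 in tomato- VEC, 10.2% ± 1.88 in cTEC, 4.91% ± 3.31 in tomato+ VEC and 4.20% ± 1.30 in mTEC. Jag2 held at most 4.65% ± 1.54, in cTEC. The ratio of Jag1 to Dll4 RPKM was 1.90 to 3.09 in the tomato+ VEC libraries and 0.954 to 2.94 in the tomato- VEC libraries. It was 7.21 to 17.2 in cTEC and 41.7 to 983 in mTEC, where the highest ratio rests on 3 Dll4 counts. Summed ligand RPKM was 126 ± 12.0 in tomato+ VEC, 88.7 ± 6.83 in tomato- VEC, 149 ± 28.0 in cTEC and 67.3 ± 14.4 in mTEC. In each lineage the tomato+ libraries were thus above the tomato- libraries in summed ligand RPKM.

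**Figure D2:**
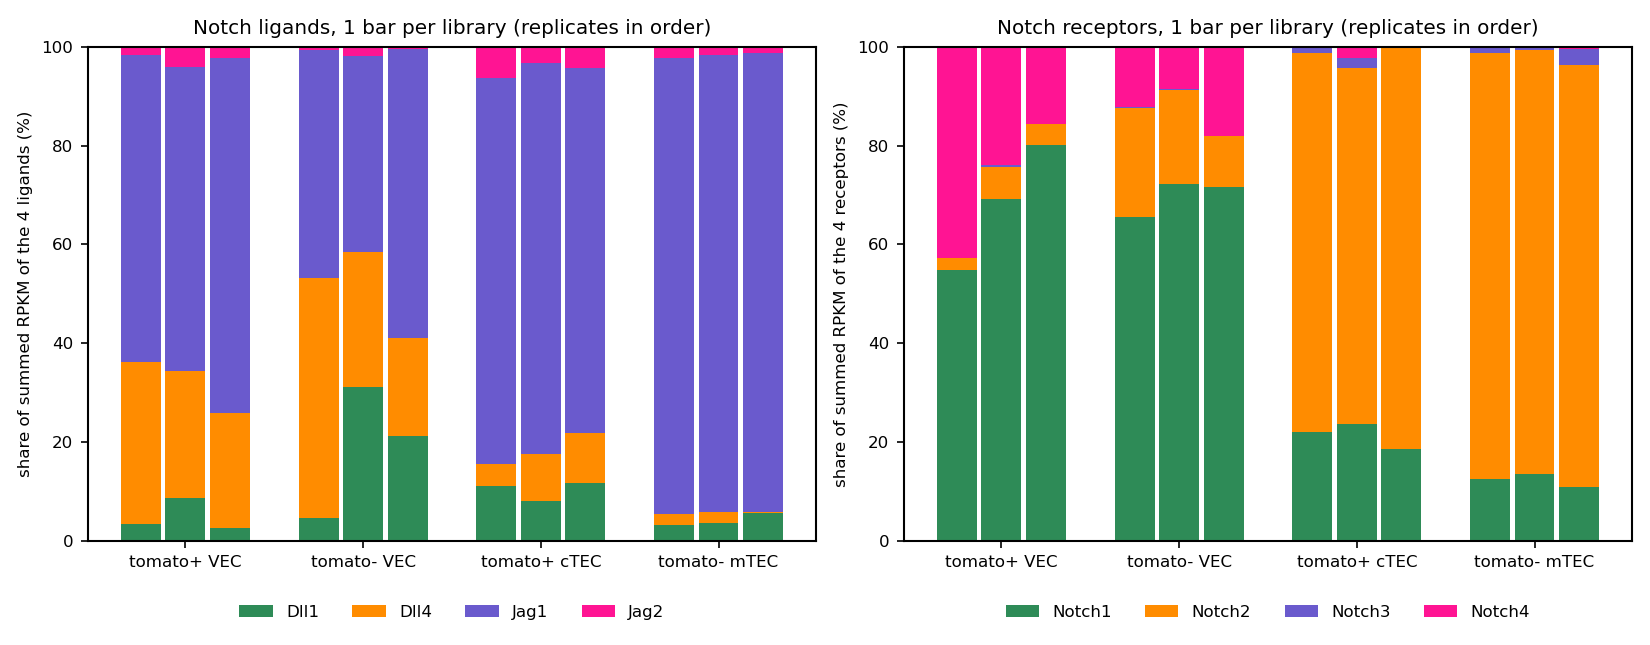
Share of each ligand (left) and each receptor (right) in the summed deposited RPKM of its 4 family members, in percent, with 1 stacked bar per library and 3 libraries per group. Jag1 fills over 90% of the ligand bar in mTEC, and the receptor bars change from mostly Notch1 in VEC to mostly Notch2 in cTEC and mTEC.

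Among the receptors, endothelium and epithelium held opposite members of the family. Notch1, the receptor best known from T-cell and vascular development, stood at 195, 143 and 224 CPM in tomato+ VEC and 150, 166 and 180 CPM in tomato- VEC. It stood at 67.6, 58.8 and 37.8 CPM in cTEC and 36.3, 47.7 and 40.0 CPM in mTEC. Both VEC groups were above both epithelial groups without overlap, and within each lineage the groups overlapped. The log2 difference between endothelium and epithelium was 1.89 (SE 0.20, adjusted p = 1.93e-05). Between the VEC groups it was 0.18 (SE 0.28, adjusted p = 0.816) and between cTEC and mTEC 0.41 (SE 0.28, adjusted p = 0.492).

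Notch2 ran the other way and separated all 4 groups. It stood at 9.15, 14.9 and 13.3 CPM in tomato+ VEC and at 55.9, 48.4 and 28.6 CPM in tomato- VEC. It stood at 261, 199 and 185 CPM in cTEC and at 276, 337 and 350 CPM in mTEC. No 2 groups overlapped. Notch2 was lower in endothelium by a log2 difference of -3.48 (SE 0.23, adjusted p = 3.68e-07). It was lower in tomato+ than in tomato- VEC by -1.83 (SE 0.30, adjusted p = 0.0101). That call was lost with limma voom (adjusted p = 0.133), with limma on log2(RPKM + 1) (0.0772) and when only the 6 VEC libraries were fitted (0.323). The difference between cTEC and mTEC was -0.58 (SE 0.29, adjusted p = 0.303).

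Some of the lymphatic endothelial markers moved with Notch2 between the VEC groups. The 6 listed markers summed to 49.8 to 62.7 CPM in tomato+ VEC, with Lyve1 at 0, and to 262 to 378 CPM in tomato- VEC, with none at 0. Of 5 tested, 3 were called, Ccl21a, Lyve1 and Pdpn, all lower in tomato+ VEC, in a comparison that called 1.65% of all tested genes. Flt4 was not called and stood at 54.3 ± 6.63 CPM in tomato+ VEC and 38.1 ± 30.1 CPM in tomato- VEC. Prox1 had too few counts to be tested, 2 in tomato+ VEC and 39 in tomato- VEC. Ccl21a, which is also on the medullary list, stood at 206 ± 112 CPM in tomato- VEC. The part of the lymphatic markers in the Notch2 difference, or in that of Hey1 given below, was not tested. In the epithelial groups myeloid markers summed to 11.2 to 168 CPM in cTEC and 366 to 404 CPM in mTEC, against 6.05 to 67.5 CPM in VEC. Of 5 tested myeloid markers 3 were called lower in endothelium, against 36.3% of all tested genes called. The part of the myeloid markers in the Notch2 difference between the lineages was not tested.

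Notch4, a receptor known from blood vessels, had almost all of its counts in VEC. It stood at 106, 34.3 and 30.2 CPM in tomato+ VEC and at 19.4, 13.6 and 31.6 CPM in tomato- VEC. In counts, cTEC held 1, 38 and 0 and mTEC held 0, 3 and 16. The VEC groups overlapped each other and lay above every epithelial library. The log2 difference between endothelium and epithelium was 5.36 (SE 1.16, adjusted p = 0.00340). The cTEC library with 38 of the group's 39 counts, replicate 2, was also the one with 403 CPM of endothelial markers, whose part in these counts was not tested. Without this library, the difference between cTEC and mTEC turned from 1.17 (SE 1.46) to -3.32 (SE 1.59). Neither value passed the threshold (adjusted p = 0.773 and 0.297).

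Notch3, a receptor known from the mural cells around vessels, was below 10 CPM in every library. Its counts were 1, 5 and 1 in tomato+ VEC, 1, 3 and 0 in tomato- VEC, 32, 46 and 1 in cTEC and 30, 13 and 121 in mTEC. The groups overlapped, because cTEC replicate 3 was as low as the VEC libraries. The log2 difference between endothelium and epithelium was -4.00 (SE 1.15, adjusted p = 0.0166). Mural cell markers summed to 228 to 655 CPM in VEC and 483 to 1608 CPM in epithelium. Of these, 9 of 9 tested were called, 2 higher and 7 lower in endothelium, against 36.3% of all tested genes called. Cspg4 was at 0 in tomato+ VEC, and Kcnj8 was at 0 in cTEC and mTEC. The cTEC library with 1 Notch3 count, replicate 3, had the highest mural sum, 1608 CPM. The part of mural cell markers in the Notch3 difference was not tested.

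Per length, Notch1 held 68.1% ± 12.6 of the summed receptor RPKM in tomato+ VEC and 69.8% ± 3.68 in tomato- VEC, but 21.3% ± 2.61 in cTEC and 12.3% ± 1.34 in mTEC (SD, n = 3). Notch2 held 76.8% ± 4.67 in cTEC and 85.9% ± 0.347 in mTEC, against 4.38% ± 2.11 in tomato+ VEC and 17.2% ± 6.15 in tomato- VEC. Notch4 held 27.4% ± 13.9 in tomato+ VEC and 12.9% ± 4.83 in tomato- VEC. The ratio of Notch1 to Notch2 RPKM was 10.6 to 23.6 in tomato+ VEC, 2.96 to 6.96 in tomato- VEC, 0.227 to 0.327 in cTEC and 0.126 to 0.157 in mTEC. These ranges did not overlap. The summed receptor RPKM varied less, from 23.5 ± 2.14 in tomato- VEC to 37.4 ± 4.31 in mTEC, with 26.6 ± 6.88 in tomato+ VEC and 29.7 ± 6.33 in cTEC.

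The 2 targets differed in where they were found. Hey1, a repressor of the Hey family used in arterial cells, had 159, 1067 and 681 counts in tomato+ VEC and 0, 3 and 0 counts in tomato- VEC. It had 624, 390 and 595 counts in cTEC and 148, 148 and 221 counts in mTEC. In normalised CPM these are 16.5, 140 and 72.9 in tomato+ VEC, 57.2, 38.2 and 51.5 in cTEC and 14.3, 17.2 and 17.7 in mTEC. Tomato+ VEC overlapped both epithelial groups, and tomato- VEC lay below all others without overlap. The level in tomato+ VEC was 653-fold that in tomato- VEC, with a 95% exact counting interval of 223 to 3168 that covers counting error only. The adjusted p of this comparison was 0.00166. Against the same 3 counts, the level was 449-fold higher in cTEC (153 to 2178) and 150-fold higher in mTEC (50.9 to 728). The fitted log2 difference between cTEC and mTEC was 1.58 (SE 0.77, adjusted p = 0.283), although these 2 groups did not overlap. It passed with the cTEC and mTEC libraries fitted alone (1.55, SE 0.30, adjusted p = 0.0121). By edgeR, Hey1 was the only member of the 10 whose difference between the VEC groups was called different from that between the epithelial groups (adjusted p = 0.00994), where 3.08% of all tested genes were called. DESeq2 called Dll1 and Dll4 there as well (adjusted p = 0.00585 and 0.0342). So did limma-trend with pseudocounts of 1 (0.0374 and 0.0253) and 0.1 (0.0459 and 0.0463). Without tomato- VEC replicate 1, edgeR called Dll1 too (0.0271).

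The endothelial level of Hey1 against epithelium depended on which VEC group was used. Over both groups Hey1 was called lower in endothelium (adjusted p = 0.00208). In comparisons added after the values were seen, tomato- VEC alone was lower than epithelium (adjusted p = 0.000214). Tomato+ VEC alone had a log2 difference of 1.43 in the opposite direction (SE 0.63, adjusted p = 0.108). Of the 10 members, 5 were called with tomato+ VEC alone against 29.1% of all tested genes, and 6 with tomato- VEC alone against 25.7%. Dll4, Notch1 and Notch4 were higher and Notch2 was lower in each. Jag1 was called lower with tomato- VEC alone, by -0.79 (SE 0.22, adjusted p = 0.0192), and stood at 0.21 (SE 0.21, adjusted p = 0.489) with tomato+ VEC alone. Notch3 passed in neither (adjusted p = 0.0966 and 0.0587).

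Hes1, a widely used Notch target and repressor, was present in every library. It stood at 111, 123 and 63.6 CPM in tomato+ VEC, 52.0, 27.1 and 42.0 CPM in tomato- VEC, 30.2, 29.7 and 21.6 CPM in cTEC and 17.6, 19.4 and 34.9 CPM in mTEC. Every tomato+ VEC library was above all others, and the remaining 3 groups overlapped their neighbours. The log2 difference between endothelium and epithelium was 1.31 (SE 0.30, adjusted p = 0.00496). With tomato+ VEC alone it was 1.96 (SE 0.35, adjusted p = 0.00125), and with tomato- VEC alone 0.66 (SE 0.36, adjusted p = 0.204). Between tomato+ and tomato- VEC the difference was 1.30 (SE 0.43, adjusted p = 0.157), which did not pass. DESeq2 gave an adjusted p of 0.0240 for it.

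**Figure D3:**
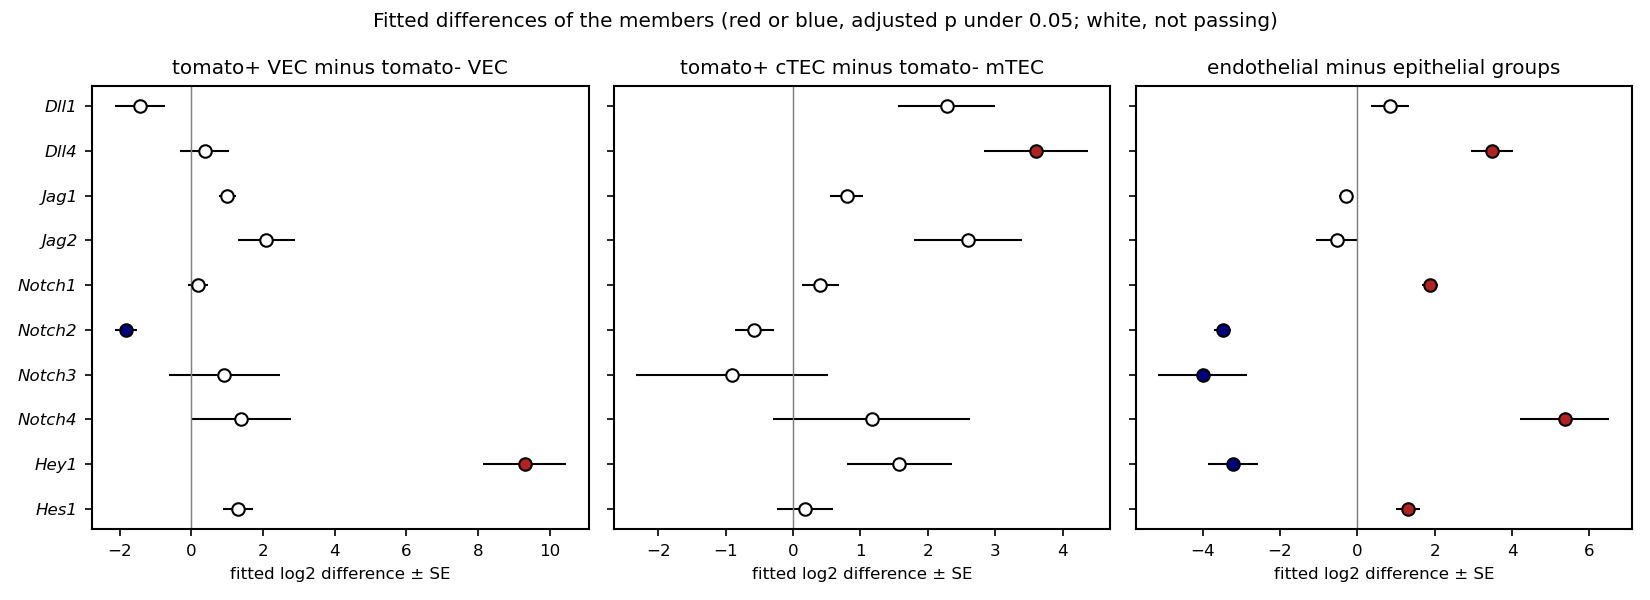
Fitted log2 difference with its SE (horizontal axis) for each member in tomato+ minus tomato- VEC, tomato+ cTEC minus tomato- mTEC, and endothelial minus epithelial groups, with n = 3 libraries per group. Red (higher) and blue (lower) points passed an adjusted p of 0.05 and white points did not; the Hey1 values that involve tomato- VEC rest on 3 counts there and are no measure of fold. Called members number 2, 1 and 7 in the 3 panels.

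Genes of arterial and venous vessels gave the setting of the VEC comparison. Of 15 arterial genes, 1 was called, against 1.65% of all tested genes. It was Efnb2, which encodes the arterial membrane protein ephrin-B2. Efnb2 stood at 507 ± 109 CPM in tomato+ VEC and 59.1 ± 30.4 CPM in tomato- VEC (log2 difference 3.10, SE 0.39, adjusted p = 0.00194). The median log2 difference was 2.26 for the 15 arterial genes and -2.30 for 7 venous genes, against 0 over all tested genes. Of the venous genes 2 were called, both lower in tomato+ VEC. Darc, the chemokine-binding receptor of venules, stood at 170 ± 132 CPM against 2886 ± 736 CPM, a log2 difference of -4.09 (SE 0.85, adjusted p = 0.0334). Vcam1, an adhesion molecule for leukocytes, stood at 539 ± 260 CPM against 1503 ± 516 CPM, a difference of -1.48 (SE 0.33, adjusted p = 0.0490). The call of Efnb2 held under all 15 alternatives. That of Darc was lost without tomato+ VEC replicate 1 or 3 or tomato- VEC replicate 1 or 2 (adjusted p up to 0.0923), and that of Vcam1 under 7 alternatives (up to 0.151), 5 of them leaving out a library.

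For the epithelial groups, 8 regulators of thymic epithelium were listed and 7 tested. Between cTEC and mTEC 1 of the 7 was called, against 7.83% of all tested genes. Pax1, a transcription factor of the pharyngeal pouches, was called higher in cTEC, at 173 ± 53.2 CPM against 32.6 ± 13.7 CPM in mTEC (log2 difference 2.41, SE 0.46, adjusted p = 0.0134). The call was lost without cTEC replicate 1 or 2 or mTEC replicate 1 or 2 (adjusted p up to 0.0911). Foxn1, the master regulator of thymic epithelium, stood at 71.5 ± 12.0 CPM in cTEC and 39.3 ± 7.46 CPM in mTEC and was not called between them.

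Beyond the members, 65 other genes of the pathway were listed in 6 lists, and 59 were tested. Between tomato+ and tomato- VEC edgeR called 0, with 6 at an unadjusted p under 0.05. Voom and limma-trend called 0 too, and DESeq2 called 5. Between cTEC and mTEC 2 were called higher and 4 lower in cTEC, where 7.83% of all tested genes were called. That count of 6 became 12 by voom, 14 and 13 by limma-trend with pseudocounts of 1 and 0.1, 15 with the epithelial libraries fitted alone and 13 by DESeq2. Between endothelium and epithelium 20 were called higher and 9 lower, where 36.3% of all tested genes were called. The median log2 difference of the 59 was 0.10, 0.21 and 0.19 in the 3 comparisons. Of the 29 calls between endothelium and epithelium 21 held under all alternatives. Of the 6 between cTEC and mTEC 1 did, that of Nov. The calls that did not hold are marked where they are named.

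The other target genes split between the lineages: of 10 tested, 4 were higher and 5 lower in endothelium, against 36.3% of all tested genes called. Nrarp, a feedback inhibitor that Notch itself induces, stood at 35.0 ± 10.6 CPM in tomato+ VEC, 55.8 ± 20.6 in tomato- VEC, 3.20 ± 2.12 in cTEC and 4.73 ± 2.81 in mTEC (log2 difference 3.50, SE 0.55, adjusted p = 0.000367). Cdkn1a, an inhibitor of the cell cycle, was higher by 2.26 (SE 0.23, adjusted p = 1.16e-05), and Ccnd1, a cyclin, by 1.69 (SE 0.23, adjusted p = 0.000140). Gata3, a transcription factor of T cells, was higher by 1.30 (SE 0.46, adjusted p = 0.0446), a call lost under 15 of 20 alternatives (up to 0.103). Ccnd1 was also lower in cTEC than in mTEC by -1.53 (SE 0.33, adjusted p = 0.0169), which was lost without cTEC replicate 3 or any 1 of the mTEC libraries (up to 0.0720).

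The Hey and Hes relatives of the 2 targets lay on the epithelial side. In cTEC Hey2 reached 27.5 ± 8.63 CPM and in mTEC 11.4 ± 9.27 CPM, and it had 13 and 3 counts in all tomato+ and tomato- VEC libraries together (adjusted p = 0.000498). The cTEC level of Heyl was 6.97 ± 6.47 CPM and its mTEC level 9.26 ± 2.78 CPM, with 6 and 1 counts in the 2 VEC groups (adjusted p = 0.00149). For Hes6 the levels were 24.1 ± 10.2 CPM (cTEC) and 72.5 ± 32.1 CPM (mTEC), against 1.40 ± 2.13 and 2.26 ± 1.50 in tomato+ and tomato- VEC (adjusted p = 0.000899). Il2ra, a receptor chain of early T cells and a Notch target there, stood at 74.3 ± 25.1 CPM in mTEC and 7.40 ± 12.1 in cTEC, with 3 counts in each VEC group (adjusted p = 0.00141). Thymocyte markers were called higher in the epithelial groups as well, 6 of 10 tested, against 36.3% of all tested genes called. They summed to 72.9 to 119 CPM in cTEC and 33.3 to 54.4 CPM in mTEC. Myeloid markers summed to 11.2 to 168 CPM in cTEC and 366 to 404 CPM in mTEC, and B cell markers to 0 to 2.51 and 7.21 to 37.0 CPM. The part of these 3 lists in the Il2ra difference was not tested. Hey1 averaged 76.3 ± 61.6 CPM in tomato+ VEC, where Hey2 averaged 0.452 ± 0.608 and Heyl 0.229 ± 0.112 CPM.

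The genes listed here as other ligands and modulators were split too, with 3 of 8 tested higher and 3 lower in endothelium, against 36.3% of all tested genes called. Egfl7, an endothelial secreted protein that binds Notch, stood at 1067 ± 60.3 CPM in tomato+ VEC, 1288 ± 336 in tomato- VEC, 21.4 ± 31.4 in cTEC and 2.60 ± 4.10 in mTEC (log2 difference 7.32, SE 1.23, adjusted p = 0.000608). Nov, which encodes the matricellular protein CCN3, stood at 108 ± 25.3 and 75.3 ± 28.6 CPM in tomato+ and tomato- VEC. In mTEC it reached 3.96 ± 1.96 CPM, and cTEC held 3 counts of it. It was called higher in endothelium (adjusted p = 2.12e-07) and lower in cTEC than in mTEC (adjusted p = 0.000574). Esm1, a proteoglycan of vascular tip cells, had 72.0 ± 28.4 and 16.8 ± 14.6 CPM in tomato+ and tomato- VEC, with 3 counts in cTEC and 0 in mTEC (adjusted p = 0.000322). Dlk2, a Delta-like protein without the domain that activates Notch, stood at 29.7 ± 8.77 CPM in cTEC, with 10 and 0 counts in the VEC groups (adjusted p = 0.00177). Cntn1, a neural adhesion molecule reported to bind Notch, had 444 counts in mTEC and at most 2 in any other group, and was lower in cTEC than in mTEC (adjusted p = 0.0172), except without any 1 of the cTEC libraries or mTEC replicate 1 or 2 (up to 0.0749). It was also called lower in endothelium (adjusted p = 0.0180), as was Mfap5, a protein of microfibrils (log2 difference -4.64, SE 1.30, adjusted p = 0.0146). The former was lost without cTEC replicate 1 or 3 (up to 0.0657) and the latter with voom (0.0506).

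Under the main settings, genes that modify and cut the receptors were higher in endothelium where they were called, in a comparison that called 36.3% of all tested genes. Of the 5 sugar-adding enzymes, the Fringe genes Lfng and Mfng were called. Mfng stood at 44.1 ± 31.9 and 142 ± 46.9 CPM in tomato+ and tomato- VEC, 1.61 ± 1.75 in cTEC and 15.9 ± 7.11 in mTEC (log2 difference 3.97, SE 0.69, adjusted p = 0.000764). Lfng had 174 and 224 counts in the VEC groups, 19 in cTEC and 2 in mTEC (adjusted p = 0.00170). Poglut1, also among the 5, pointed the other way and was not called (log2 difference -0.58, SE 0.22, adjusted p = 0.0604). Its level was 93.4 ± 39.8, 102 ± 17.3, 98.7 ± 26.3 and 216 ± 17.5 CPM in tomato+ VEC, tomato- VEC, cTEC and mTEC. It was called with relative log expression scaling, the filter of at least 5 CPM, the replicate block, voom, limma-trend and DESeq2. Of 9 proteases and their subunits 4 were called, all higher. Adam10, the protease that makes the outer cut, stood at 741 ± 64.7, 710 ± 93.5, 194 ± 31.0 and 189 ± 13.7 CPM in tomato+ VEC, tomato- VEC, cTEC and mTEC (log2 difference 1.92, SE 0.14, adjusted p = 6.37e-07). Psen2, a catalytic subunit of gamma-secretase, was higher by 3.71 (SE 0.34, adjusted p = 5.28e-06). Adam17 and Furin were higher by 0.88 (SE 0.18) and 0.76 (SE 0.28), with adjusted p of 0.00251 and 0.0498. The call of Furin was lost under 15 of 20 alternatives (up to 0.160).

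Of 12 genes of the nuclear complex and its co-repressors 3 were called higher in endothelium, where 36.3% of all tested genes were called. They were the coactivators Maml1 and Maml2 and the co-repressor Ncor1, by 1.80 (SE 0.52), 0.83 (SE 0.22) and 0.74 (SE 0.26). Maml1 was lost with voom and limma-trend (adjusted p up to 0.0675), Maml2 with limma-trend (up to 0.0759) and Ncor1 under 14 of 20 alternatives (up to 0.244). Rbpj itself stood at 35.1 ± 18.6, 19.0 ± 11.9, 24.4 ± 6.42 and 51.7 ± 7.98 CPM in tomato+ VEC, tomato- VEC, cTEC and mTEC and was called in none of the 3 comparisons.

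Of 15 genes for ubiquitin ligases and endocytosis, 4 were higher in endothelium and 1 lower, where 36.3% of all tested genes were called. Numb, an adaptor that restrains Notch, was higher by 2.02 (SE 0.24, adjusted p = 3.95e-05), and the ligases Neurl3 and Neurl1b by 4.58 (SE 0.94) and 2.02 (SE 0.57). Dtx3l, a Deltex relative, was higher by 0.63 (SE 0.20, adjusted p = 0.0247) and was higher in cTEC than in mTEC by 0.99 (SE 0.28, adjusted p = 0.0499). The first call was lost under 6 of 20 alternatives (up to 0.152) and the second under 10 of 15 (up to 0.190). Dtx4, another Deltex, had a level of 20.1 ± 11.9 CPM in cTEC and of 9.62 ± 10.2 CPM in mTEC, with 7 and 2 counts in the VEC groups (adjusted p = 0.000484). Nedd4, a ubiquitin ligase with many substrates, was higher in cTEC than in mTEC, at 1252 ± 144 against 725 ± 29.2 CPM (log2 difference 0.79, SE 0.17, adjusted p = 0.0158), which was lost without cTEC replicate 1 or mTEC replicate 1 or 2 (up to 0.0981). Neurl1a had 137 counts in mTEC, 0 in cTEC and tomato- VEC and 1 in tomato+ VEC, and was lower in cTEC than in mTEC (adjusted p = 0.0305), a call lost under 8 of 14 alternatives (up to 0.109).

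**Figure D4:**
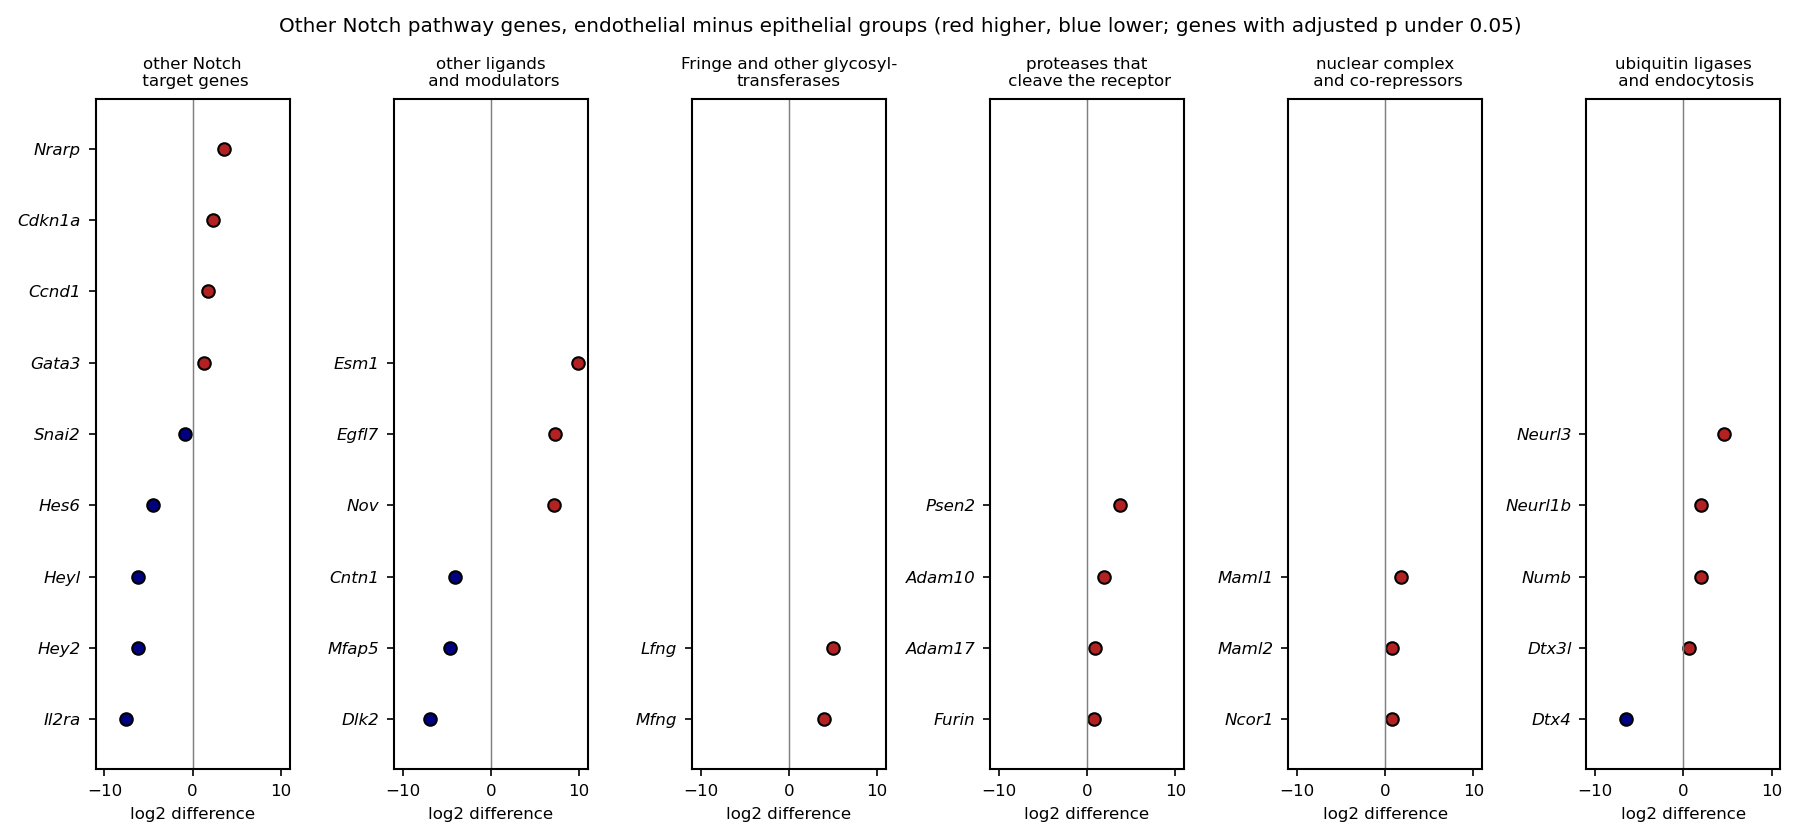
Fitted log2 difference, endothelial minus epithelial groups (horizontal axis), of the pathway genes called in that comparison at an adjusted p under 0.05, in their 6 lists and ordered by value within a list. Red points are the 20 genes called higher in endothelium and blue points the 9 called lower; values of genes with a group at or near 0 counts are no measure of fold.

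Finally, the genes whose levels ran most alike to each member were listed, by the Pearson correlation of log2(CPM + 1) over the 12 libraries among 10721 genes. The libraries are 3 each of 4 groups, so such a value mainly compares 4 group levels, and no test was made. Dll4 ran most like B4galt4 (0.985), Mall (0.969) and Fez2 (0.966), and Dll1 like Rbm33 (0.929). Notch1 ran most like the basement membrane collagen gene Col4a1 (0.982), Sec14l1 and Apbb2 (both 0.980). Notch4 ran most like the cytokine gene Il6 (0.982), which stood at 944 CPM in tomato+ VEC, 238 in tomato- VEC, 2.91 in cTEC and 1.24 in mTEC. Notch2 ran most like Fam134b (0.987), Gpc1 (0.986) and Cd74 (0.980), the invariant chain of class II antigen presentation. Hey1 ran most like Lgals3bp (0.969) and Arhgef25 (0.954), Hes1 like Arhgap10 (0.958), Jag1 like Higd1a and Aldh2 (both 0.902), and Jag2 like Wapal (0.897). With rank correlation, 5 of the 9 members examined kept fewer than 2 of their 3 nearest genes. Dll4 kept 0, and Jag2, Notch2, Notch4 and Hes1 kept 1 each. Notch3 was below 5 CPM in every group mean and was not examined.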

How the data were processed

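Poly(A) RNA of FACS-sorted cells was made into cDNA with an ultra-low input amplification kit, per the labels' protocols. TopHat2 2.0.10 and the build mm9 are named in the submitters' processing notes. The read counter is not given in the sources used here, nor is the annotation. Per the file headers, the authors deposited a raw read count and an RPKM value per gene symbol and library. All 180417 RPKM values tested equalled count over column total and a fixed gene length, within a relative 1e-06. Strand is not stated, so reads of overlapping antisense genes cannot be told apart. No member shared all its counts with another symbol.

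Counts were tested in R 4.3.3 with edgeR 4.0.16 (filterByExpr with minimum count 10, TMM scaling, a term per group, quasi-likelihood F-test, 8 residual degrees of freedom, common dispersion 0.624). The SE is the absolute log2 value over the square root of F. Levels are TMM-normalised CPM. Marker, arterial, venous and pathway lists, and the members, were chosen with earlier results of these data known. From each list and comparison at most 4 called genes per direction, by smallest p, were to be named. For the pattern search 3 genes per member were taken among genes with a mean of at least 5 CPM, unnamed gene models left out; some items are not reported here. Marker genes named beside a list were chosen after their values were seen. Alternatives were DESeq2 1.42.0, voom and limma-trend (limma 3.58.1) on log2(RPKM + 1) and log2(RPKM + 0.1), relative log expression scaling, other filters, only the libraries compared, the replicate block, and leaving out each library. Code was tested on simulated data, with 50 changed genes per fold in each comparison. Of genes changed 16-fold, edgeR recovered 36% between the VEC groups and 38% between cTEC and mTEC. It recovered 54% between endothelium and epithelium and 16% in the test of the difference. For genes changed 4-fold these values were 8%, 4%, 30% and 2%. A gene that was not called may therefore still differ. Python 3.11.15 with scipy 1.17.1 gave the counting intervals.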

Additional observations from a re-analysis of the deposited data

Results flagged for a closer look

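Among the 10 members and the 59 tested genes of the pathway lists, 3 were genes whose difference between tomato+ and tomato- VEC was called different from that between tomato+ cTEC and tomato- mTEC, by edgeR's test of the difference itself. Over all 14792 tested genes 456 were called. For Hey1 the fitted difference of the differences was 7.72 on the log2 scale (SE 1.31, adjusted p = 0.00994), a value that rests on 3 counts in tomato- VEC and is no measure of fold. Neither the VEC pair nor the epithelial pair overlapped, with the tomato+ libraries higher in both. For Nov, which stood higher in mTEC than in cTEC, it was 5.76 (SE 0.77, adjusted p = 0.00337), with 3 counts in cTEC, and the call was lost with limma-trend on log2(RPKM + 1) (0.0576). For Nedd4 it was -0.96 (SE 0.23, adjusted p = 0.0487), with 835 ± 77.2 and 938 ± 93.2 CPM in tomato+ and tomato- VEC and 1252 ± 144 and 725 ± 29.2 CPM in cTEC and mTEC (SD, n = 3). The call of Nedd4 was lost under 16 of 20 alternatives, among them relative log expression scaling, both other filters, the replicate block and each of the 12 that leave out a library (adjusted p up to 0.164). Reporter and sort gate change together in the epithelial pair, so what the difference belongs to cannot be told apart.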

How the results depend on the processing

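For single members, 665 values under an alternative kept their direction and side of the threshold, 28 gained a call, 7 lost one and 14 changed sign. In the VEC comparison 244 genes were called by edgeR, 601 by voom, 473 and 447 by limma-trend with pseudocounts of 1 and 0.1 on the RPKM, 112 when nothing but the 6 compared libraries was fitted and 1337 by DESeq2. Leaving out a library gave 174 to 394, the latter without tomato+ VEC replicate 3. Members called there were 2, but 5 by DESeq2 and 1 both in the fit of the compared libraries and by limma-trend with the pseudocount of 1, and stayed at 2 without any library. Between cTEC and mTEC the 1158 genes became 2219, 2530, 2172, 2487 and 2346 under the same 5 settings, and 428 to 702 without any of the 6 libraries, with the fewest without mTEC replicate 1. The 1 member called became 4, 4, 4, 4 and 3, and 0 or 1 without a library (0 without mTEC replicate 1). In the test of the difference 456 genes became 1309 by voom, 1766 and 1529 by limma-trend and 1574 by DESeq2. They became 159 to 491 without a library, the fewest without mTEC replicate 1, and fell by over 1.5 times also without tomato- VEC replicate 1, cTEC replicates 1 and 3 and mTEC replicates 2 and 3. Members called there became 3 by both limma-trend settings and by DESeq2, and 1 or 2 without a library (2 without tomato- VEC replicate 1). Between endothelium and epithelium no count of calls moved by over 1.5 times: 5 to 8 members were called under all alternatives. The cause of these moves was not tested.

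The replicate block changed no call of a member. It lowered the count in the test of the difference to 269. The labels do not say whether a replicate number marks a shared animal or day. Deviations of same-numbered libraries correlated at -0.0136 to 0.0768. Libraries with different numbers were not compared in this way, so these values cannot decide whether the libraries were paired.

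Signs that changed all belonged to values past no threshold under the alternative. Without a library, Notch3 ranged from -0.36 to 2.17 between the VEC groups (negative without tomato+ VEC replicate 2). Between cTEC and mTEC it ranged from -1.67 to 0.22 (positive without mTEC replicate 3), and Notch4 from -3.32 to 2.87 (negative without cTEC replicate 2). Notch4 there was -0.0561 by voom. In the test of the difference Jag2 ranged from -0.91 to 0.63 (positive without tomato- VEC replicate 2). Notch1 ranged from -0.46 to 0.03 (positive without tomato+ VEC replicate 2 or cTEC replicate 1, at 0.0268 and 0.0340). Notch4 ranged from -1.46 to 4.77 (negative without tomato+ VEC replicate 1, cTEC replicate 1 or 3, or mTEC replicate 3). With tomato+ VEC alone against epithelium Hey1, Jag1 and Jag2 became 1.43, 0.21 and 0.51. Taken from CPM and not per length, the share of Jag1 was 74.6%, 59.4%, 83.8% and 95.1% in tomato+ VEC, tomato- VEC, cTEC and mTEC, that of Dll4 19.6% in tomato+ VEC, that of Dll1 6.96% in cTEC and 2.69% in mTEC, and that of Notch2 87.3% in mTEC. Low counts limit what can be said of Notch3 in VEC, Notch4 in epithelium and Hey1 in tomato- VEC.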
